A study of Mus musculus with 6 samples.

Results

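The costimulatory and checkpoint ligands examined here were 10 genes, Cd80, Cd86, Cd274, Pdcd1lg2, Icosl, Cd276, Cd47, Cd200, Lgals9 and Havcr2, followed among the 53618 named genes of the table. They were taken by name as a fixed list of immune ligands, with earlier results of these data known, and all 10 had a row of their own. RNA was sequenced from GFP+Lin-c-Kit+ splenocytes of mice carrying AE9a leukemia, in which a truncated AML1-ETO fusion delivered together with GFP by retrovirus drives acute myeloid leukemia. Both groups carried the same Usp18+/f UBCER-Cre leukemia cells. The 3 control mice received oil, so that their cells are labelled Usp18+/f, and the other 3 received tamoxifen, which activates the ubiquitously expressed Cre and is meant to leave Usp18+/Δ cells. Cells were sorted 3 days after the first injection and, per the methods, after 3 injections. The recipients were wild-type mice 8 to 12 weeks old, irradiated before the leukemia cells were transplanted. The paper counted host immune cells in the spleens of such recipients. It tested Cre and tamoxifen alone for survival. No group given tamoxifen without the floxed allele was analysed here, so exposure to tamoxifen and loss of the allele cannot be told apart.

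Leukemia cells meet T cells and macrophages through pairs of surface proteins. CD80 and CD86 bind CD28, which helps to activate a T cell, and CTLA-4, which restrains it. PD-L1 and PD-L2, encoded by Cd274 and Pdcd1lg2, bind the inhibitory receptor PD-1. ICOSL binds ICOS on activated T cells, and CD276, also called B7-H3, is a B7 family protein whose receptor is not settled. CD47 binds SIRPα on macrophages and restrains phagocytosis, while CD200 restrains myeloid cells that carry its receptor CD200R1. Galectin-9, the product of Lgals9, is a sugar-binding ligand of TIM-3, which is encoded by Havcr2 and is itself found on myeloid cells as well as on T cells. Several of these genes, Cd274 above all, are known to respond to interferons, and the product of Usp18 dampens signaling by type I interferon.

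The 10 genes lie on 5 chromosomes. In GRCm38 coordinates of GENCODE vM21, the build that the submitters' processing notes name as mm10, 4 of them lie on chromosome 16. These are Cd86 (36603869 to 36666081, minus strand), Cd80 (38455561 to 38496335, plus strand), Cd200 (45382135 to 45409053, minus strand) and Cd47 (49800533 to 49915010, plus strand). Cd274 (29367455 to 29388095) and Pdcd1lg2 (29410919 to 29471161) are neighbours on the plus strand of chromosome 19, with 22.8 kb between them. Havcr2 (46454935 to 46481255, plus strand) and Lgals9 (78962974 to 78984946, minus strand) lie on chromosome 11, Icosl (78069302 to 78083913, plus strand) on chromosome 10 and Cd276 (58524298 to 58555437, minus strand) on chromosome 9. The strand setting of the counting is not stated. Exons on the opposite strand overlap those of Cd276, where Gm10657 had 0 to 6.29 normalized counts, and those of Cd274, where AC119228.1 was not analysed here.

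Promoter sequence was at hand for 9 of the 10 genes, and 4 of these promoters are shown. They belong to Cd80, the gene with the widest difference between the groups, to the neighbouring PD-1 ligands Cd274 and Pdcd1lg2, and to Lgals9, the most abundant of the genes per length. Each is the run of 250 bases before a RefSeq start (GRCm38.p6), written 5′ to 3′ on the strand of the gene, and capitals mark a match to a motif. They cover chr16:38458683-38458932 on the plus strand, chr19:29367188-29367437 on the plus strand, chr19:29410669-29410918 on the plus strand and chr11:78984925-78985174 on the minus strand. The window of Cd80 lies inside the GENCODE span of the gene, which begins further upstream.

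Cd80: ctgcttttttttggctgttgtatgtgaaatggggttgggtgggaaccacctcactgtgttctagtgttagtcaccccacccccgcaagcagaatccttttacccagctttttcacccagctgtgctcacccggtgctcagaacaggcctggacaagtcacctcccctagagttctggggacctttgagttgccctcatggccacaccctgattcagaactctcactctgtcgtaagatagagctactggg

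Cd274: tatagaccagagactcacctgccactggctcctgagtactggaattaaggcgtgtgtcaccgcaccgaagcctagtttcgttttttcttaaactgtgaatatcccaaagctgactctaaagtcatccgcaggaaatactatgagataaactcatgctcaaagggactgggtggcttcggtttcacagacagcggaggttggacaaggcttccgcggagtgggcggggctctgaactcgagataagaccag

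Pdcd1lg2: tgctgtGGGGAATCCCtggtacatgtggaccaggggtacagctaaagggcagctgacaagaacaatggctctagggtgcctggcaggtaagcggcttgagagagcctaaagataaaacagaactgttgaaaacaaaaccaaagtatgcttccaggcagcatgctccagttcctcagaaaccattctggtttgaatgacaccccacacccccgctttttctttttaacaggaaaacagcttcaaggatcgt

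Lgals9: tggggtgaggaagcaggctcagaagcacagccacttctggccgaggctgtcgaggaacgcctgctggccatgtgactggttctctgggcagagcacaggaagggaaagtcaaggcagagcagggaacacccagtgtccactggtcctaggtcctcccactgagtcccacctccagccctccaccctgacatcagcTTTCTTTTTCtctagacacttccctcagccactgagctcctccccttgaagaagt

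These windows were searched on both strands for the core of the interferon-stimulated response element (GAAANNGAAA), the core of the gamma-activated site (TTCNNNGAA) and the NF-κB consensus. Among 32841 promoter windows of the same length, 2.98%, 7.02% and 7.25% held a match, respectively. The matches of the 9 genes searched overlapped no other motif and came to 3. Cd86, without a promoter sequence at hand, was not searched. Lgals9 held an interferon-stimulated response element core 55 to 46 bases before its start, on the opposite strand, Pdcd1lg2 an NF-κB match 244 to 235 bases before its start, and Icosl an NF-κB match 111 to 102 bases before its start. No match was found in these windows of Cd80, Cd274, Cd276, Cd47, Cd200 and Havcr2, which says only that these letters are not there. A match is a description of the sequence, not a binding site.

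Between 19164795 and 23770537 reads were recovered per library for named genes. Values are normalized counts, read counts divided by a size factor for each library. The library labelled tamoxifen 1 stood apart, with a median correlation to the others across genes of 0.913 against 0.981 to 0.990, and with 0.00923% mitochondrial reads against 1.01% to 1.56%. Fold changes are therefore given with and without it. Usp18, the targeted gene, went against the labels, with 217, 214 and 176 normalized counts in oil 1, 2 and 3 against 477, 329 and 284 in tamoxifen 1, 2 and 3, so every direction given here is between labels, and oil 1 or tamoxifen 1 stands for the library so labelled. Kit, used in the sort, lay between 4687 and 10976 and Runx1 between 9996 and 12791 in the 6 libraries, whereas Ptprc (CD45, the common leukocyte antigen) lay between 0.898 and 8.08 and Mpo, a granule enzyme of myeloid progenitors, between 0 and 20.2. The mast cell and basophil genes Hdc (21496 to 32583) and Ms4a2 (2965 to 19301) were abundant in every library.

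Per length, the 10 genes spanned a wide range of levels. In the oil-labelled libraries, Lgals9 had 5649 ± 149 normalized counts per kb of exon (SD, n = 3) and Cd47 2765 ± 125 (SD, n = 3), which placed them in the top 1.25% and top 2.54% of tested genes. Cd276 followed with 438 ± 50.1 (SD, n = 3) per kb. Havcr2 and Cd274 came next with 75.7 ± 15.3 and 66.7 ± 10.6 (SD, n = 3), and their ranges overlapped. Pdcd1lg2 had 19.2 ± 4.99 and Cd80 3.73 ± 1.67 (SD, n = 3) per kb. The ranges of Lgals9, Cd47, Cd276, Cd274, Pdcd1lg2 and Cd80 were each separate from that of the gene next below in this order. Cd86, Icosl and Cd200 closed it at 0.511, 0.067 and 0 per kb, with overlapping ranges.

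The same order of the first 7 genes held in the tamoxifen-labelled libraries, with 5350 ± 406, 2066 ± 1213, 417 ± 63.3, 109 ± 89.0, 78.8 ± 19.4, 25.2 ± 6.61 and 17.3 ± 4.31 normalized counts per kb (SD, n = 3). There the range of Cd80 reached into that of its neighbour Pdcd1lg2, from which it was separate in the oil-labelled libraries. Spread within a group was uneven among the genes. Between the lowest and the highest library labelled tamoxifen the value differed 7.14-fold for Havcr2 and 4.32-fold for Cd47, but 1.16-fold for Lgals9, and in the oil-labelled libraries these figures were 1.48, 1.09 and 1.05.

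**Figure D1:**
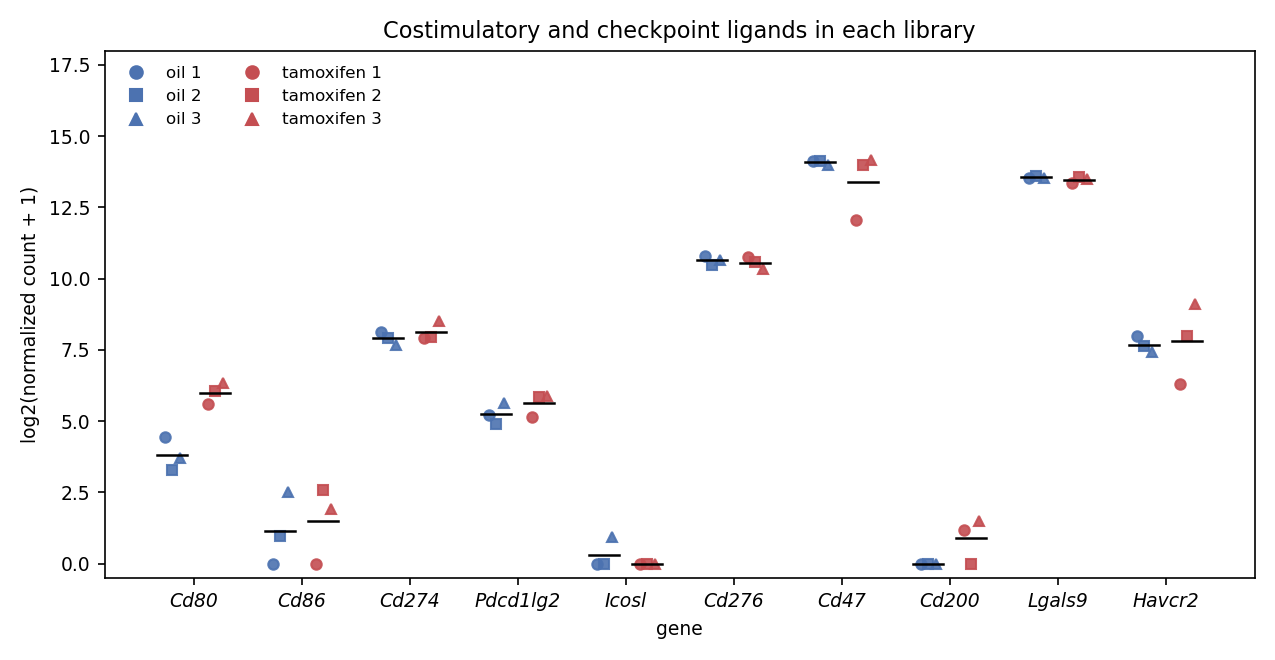
Normalized counts of the 10 genes on a log2(value + 1) scale (vertical axis) by gene (horizontal axis). Each symbol is 1 library, blue for oil and red for tamoxifen, and black bars are group means of the log2 values. Cd80 is the gene whose libraries labelled tamoxifen (47.3, 65.7 and 79.1) all lie above the oil-labelled ones (20.7, 8.68 and 12.1) among the 7 genes tested, and Cd47 and Havcr2 are low in tamoxifen 1.

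Of the 10 genes, 7 reached a normalized count of 10 in at least 3 libraries and were tested with limma among 12298 genes. Cd80 reached this limit through the tamoxifen-labelled libraries alone, so the counts over the 7 are no support for its difference. None of the 7 passed an adjusted p of 0.05, where 0% of all tested genes were called higher and 0% lower. Before adjustment (p under 0.05), 1 of the 7 was higher in the tamoxifen-labelled libraries (Cd80) and 0 were lower, against 3.23% and 1.24% of all tested genes. The groups did not overlap for 1 of the 7, which was higher, where 7.86% of tested genes were higher and 9.69% lower in this way. Their median log2 fold change was 0.13, and that of all tested genes -0.02. With 3 mice against 3, an exact two-sided permutation test of a single gene can give no p below 0.1. In bulk RNA, fewer cells of a type and less RNA per cell cannot be told apart.

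Cd80 had the widest difference. It had 20.7, 8.68 and 12.1 normalized counts in the oil-labelled libraries 1, 2 and 3, and 47.3, 65.7 and 79.1 in tamoxifen 1, 2 and 3. Each tamoxifen-labelled library exceeded each oil-labelled library, and the mean was 4.64-fold higher, 64.0 ± 16.0 against 13.8 ± 6.17 (SD, n = 3). The values rest on 23, 9 and 13 reads and on 37, 65 and 87 reads. As normalized counts, the exact Poisson interval (95%, counting error only) of the highest oil-labelled value was 13.1 to 31.0 and that of the lowest tamoxifen-labelled value 33.3 to 65.2, and these did not overlap. The estimated log2 fold change of 2.19 had a standard error of 0.40 and a 95% interval of 1.22 to 3.15, and limma gave an unadjusted p of 0.00119 and an adjusted p of 0.580.

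The call on Cd80 depended on the tool and on tamoxifen 1, its direction on neither. Without that library limma gave a log2 fold change of 2.38 (95% interval 1.52 to 3.25) and an adjusted p of 0.0426, where 0.309% of tested genes were called higher. edgeR on the recovered reads of all 6 libraries gave an adjusted p of 0.488 and called 0% of genes higher. Without tamoxifen 1, edgeR gave 0.0316 and called 0.341% higher. DESeq2, the tool of the study, gave an adjusted p of 0.00185 over all libraries, where it called 0.437% of genes higher, and of 0.000274 without tamoxifen 1, where it called 1.28%. With libraries weighted by their fit, limma gave 0.00118, where 3.82% were called. Tamoxifen 1 had a weight of 0.0377 there, against 0.956 to 3.37 for the other libraries. That fit thus comes close to leaving tamoxifen 1 out. Over all alternatives the adjusted p of Cd80 lay between 0.000274 and 0.861 and its log2 fold change between 1.90 and 2.56. A figure of the study shows Cd80 among the genes it followed further between these groups, so its direction here is not independent evidence.

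Cd86, which shares the receptors of Cd80, was close to the floor. It had 0, 1 and 5 reads in the oil-labelled libraries and 0, 5 and 3 in the tamoxifen-labelled, which gives 0, 0.965 and 4.64 against 0, 5.05 and 2.73 normalized counts. The groups overlapped, and at this depth no difference was detectable.

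Macrophages, dendritic cells and B cells are known sources of Cd80 and Cd86. The summed level of macrophage genes, like Cd80, did not overlap between the labels. Of 12 macrophage markers 8 were tested, and 4 of these 8 (Mrc1, C1qb, C1qc and Cd163) could enter the test through the tamoxifen-labelled libraries alone. Counts over the 8 and their median are therefore no support for a difference. limma called 0 of the 8 at an adjusted p of 0.05. Before adjustment (p under 0.05), 4 of the 8 were higher and 0 lower, against 3.23% and 1.24% of all tested genes. The median log2 fold change of the 8 was 1.27, or 1.26 without tamoxifen 1. Without overlap between the groups 4 were higher (Csf1r, Cd68, C1qa and C1qb) and 0 lower, where 7.86% and 9.69% of all tested genes were so. The summed level of the 12 was 113 to 262 normalized counts in the oil-labelled libraries and 302 to 395 in the tamoxifen-labelled. The highest oil-labelled sum was thus 262 and the lowest tamoxifen-labelled 302, while for Cd80 these values were 20.7 and 47.3. The most abundant were Vcam1 (13.5 to 98.0 over the 6 libraries) and Cd68 (24.1 to 49.5), while Adgre1, which encodes F4/80, lay between 0.929 and 11.1 and Marco did not exceed 3 reads. Cd86 did not exceed 5 reads in any library. The sort for GFP+Lin- cells is meant to leave out host cells, and the part of host macrophages in the level of Cd80 was not tested.

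Most markers of B cells, T cells, NK cells and dendritic cells did not exceed 3 reads in any library, nor did 2 of the 7 of neutrophils. Ms4a1 and Cd22 of B cells, Cd3e, Cd8a and Cd8b1 of T cells, Ncr1, Klrb1c and Eomes of NK cells, Clec9a of dendritic cells and Ly6g of neutrophils had no read in any library, which allows up to 2.69 to 3.83 normalized counts per library (3 reads). The summed level of 6 B cell markers was 4.64 to 9.65 in the oil-labelled libraries and 6.06 to 24.3 in the tamoxifen-labelled, led by Cd79b and Cd79a. It was 37.6 to 65.9 and 32.7 to 98.4 for 7 T cell markers, led by Lck and Cd4, and 85.3 to 130 and 84.9 to 174 for 6 dendritic cell markers, led by Zbtb46 and Xcr1. For 5 NK cell markers it was 58.9 to 160 and 193 to 662, nearly all from Nkg7, since Klre1 did not exceed 1 read. For 7 neutrophil markers it was 6.29 to 8.68 and 26.4 to 62.6, led by S100a8 and Ngp, and 0 of these 7 were tested. Like the macrophage sum, the sums for NK cells and neutrophils were higher in each tamoxifen-labelled library than in each oil-labelled one. The highest sums for B cells, T cells, dendritic cells and neutrophils were those of tamoxifen 1.

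Of the mast cell and basophil genes, some were abundant in both groups and others low. The summed level of 8 markers was 51097 to 56059 in the oil-labelled libraries and 41461 to 61672 in the tamoxifen-labelled, most of it from Hdc and Ms4a2. limma called 0 of the 8 over all libraries, with 3 higher and 0 lower before adjustment (p under 0.05), against 3.23% and 1.24% of all tested genes. Without tamoxifen 1 it called 2 higher, against 0.309%. The 3, Tpsb2, Mcpt8 and Cpa3, are named after their values were seen. Tpsb2, which encodes a mast cell tryptase, had 7.19, 16.4 and 13.0 normalized counts in the oil-labelled libraries and 46, 153 and 148 in the tamoxifen-labelled, a log2 fold change of 3.03, or 3.59 without tamoxifen 1 with a limma adjusted p of 0.00277. Like Cd80, Tpsb2 could enter the test through the tamoxifen-labelled libraries alone, so the counts over the 8 are no support for its difference. Cpa3, which encodes a mast cell carboxypeptidase, had 3823, 3992 and 4174 against 4074, 7774 and 9431, a log2 fold change of 0.74, or 1.10 without tamoxifen 1 with a limma adjusted p of 0.00183. Mcpt8, a basophil protease gene, had 27.8, 26.0 and 40.9 against 60.1, 78.8 and 96.4. Ms4a2, which encodes a chain of the IgE receptor, had 17754, 19301 and 19161 against 2965, 16499 and 14036, a log2 fold change of -1.09, or -0.30 without tamoxifen 1. Fcer1a, a further chain of that receptor, had a log2 fold change of -0.32 and Cd200r3 of -0.85, or 0.51 and -0.26 without tamoxifen 1. The groups did not overlap for 2 of the 8 that were higher (Tpsb2 and Mcpt8) and 1 that was lower (Ms4a2), against 7.86% and 9.69% of all tested genes, and for Cpa3 they overlapped through tamoxifen 1. The sort is meant to leave out host cells of these types too, and their part in the level of Cd80 was not tested.

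**Figure D2:**
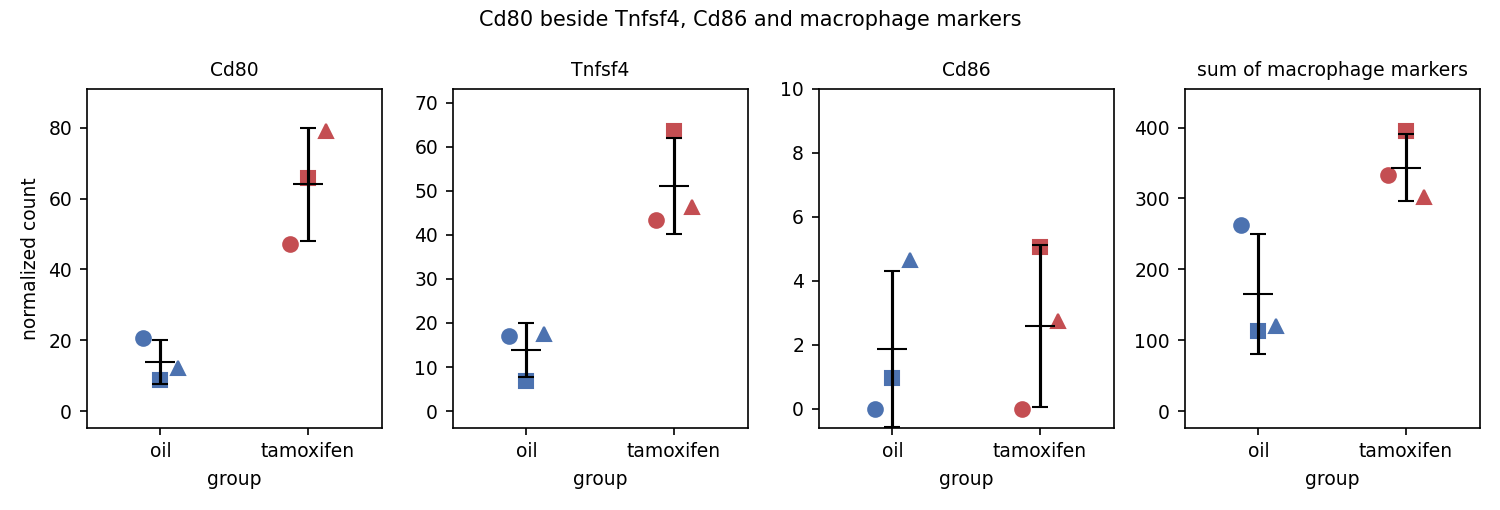
Normalized counts (vertical axes) of Cd80, Tnfsf4, Cd86 and the summed macrophage markers in the oil-labelled libraries (blue) and tamoxifen (red), with the mean and SD (black, n = 3) and 1 symbol per library as in the plot of all 10 genes. Cd80, Tnfsf4 and the macrophage sum (113 to 262 against 302 to 395) separate the groups, and Cd86 does not exceed 5.05.

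The PD-1 ligands did not separate the groups. Cd274 had 281, 239 and 204 normalized counts in oil 1, 2 and 3 against 243, 247 and 366 in tamoxifen 1, 2 and 3. Tamoxifen 3 was the highest library, and the remaining tamoxifen-labelled values lay within the oil-labelled range. Its log2 fold change of 0.22 (standard error 0.24) had a 95% interval of -0.36 to 0.81, and limma gave an adjusted p of 0.678. Pdcd1lg2 had 35.9, 28.9 and 48.3 normalized counts in the oil-labelled libraries and 34.5, 56.6 and 57.3 in the tamoxifen-labelled. For Pdcd1lg2 the estimate was 0.38 (standard error 0.34) with an interval of -0.43 to 1.19 and a limma adjusted p of 0.666. When tamoxifen 1 was left out, the values of Pdcd1lg2 no longer overlapped, and the log2 fold change was 0.61 with an interval of -0.02 to 1.24 and a limma adjusted p of 0.423. That of Cd274 was then 0.33, with an interval of -0.11 to 0.77. The intervals of both genes leave room for changes in either direction.

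The remaining B7 family ligands lay far apart in level. Cd276 had 1787, 1420 and 1602 normalized counts in the oil-labelled libraries and 1753, 1535 and 1290 in the tamoxifen-labelled. The groups overlapped, with a log2 fold change of -0.08 (standard error 0.18) and an interval of -0.50 to 0.35. Its limma adjusted p was 0.831, and without tamoxifen 1 the log2 fold change was -0.18 with an interval of -0.44 to 0.08. Icosl had 1 read in oil 3 and 0 in each other library, so neither group exceeded the floor and no fold is given.

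Of the genes that restrain myeloid cells, Cd47 was abundant and Cd200 was at the floor. Cd47 had 17761, 17853 and 16448 normalized counts in the oil-labelled libraries and 4287, 16122 and 18498 in the tamoxifen-labelled. Tamoxifen 1 lay far below the other 5 libraries, at 0.241 times their median, while tamoxifen 2 and 3 lay just below and just above the range of oil. Over all libraries the log2 fold change was -0.68 with an interval of -1.96 to 0.61 and a limma adjusted p of 0.666, and without tamoxifen 1 it was -0.01 with an interval of -0.21 to 0.20. For Cd200 no read was counted with oil, and 1, 0 and 2 reads in tamoxifen 1, 2 and 3, so neither group exceeded the floor of 3 reads and no fold is given.

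Of the TIM-3 pair, Lgals9 had the narrowest spread of the 7 tested genes in both groups, and Havcr2 the widest in the tamoxifen-labelled libraries. Lgals9 had 11841, 12434 and 11937 normalized counts in the oil-labelled libraries and 10498, 12215 and 11583 in the tamoxifen-labelled. The groups overlapped, with an estimate of -0.08 on the log2 scale (standard error 0.13) and an interval of -0.40 to 0.23, and limma gave an adjusted p of 0.762. Without tamoxifen 1 the interval narrowed to -0.19 to 0.15. Havcr2 had 252, 197 and 170 in the oil-labelled libraries and 78.0, 253 and 557 in the tamoxifen-labelled. The tamoxifen-labelled libraries thus held both the lowest and the highest value, and the log2 fold change of 0.13 had an interval of -1.48 to 1.74, with a limma adjusted p of 0.928.

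The direction of Havcr2 turned on single libraries. Without tamoxifen 1 its log2 fold change was 0.88 with an interval of 0.22 to 1.54 and a limma adjusted p of 0.278, and DESeq2 then gave an adjusted p of 0.0312. In that comparison the groups were separate by a narrow margin, 252 in oil 1 against 253 in tamoxifen 2. With library weights limma gave 1.18 and an adjusted p of 0.0173, and without tamoxifen 3 the log2 fold change was -0.53. Without tamoxifen 1, the groups did not overlap for 3 of the 7 tested genes (Cd80, Pdcd1lg2 and Havcr2, each higher) and 0 were lower, where 12.6% of all tested genes were higher and 16.8% lower in this way. The median log2 fold change of the 7 was then 0.33, against -0.02 for all tested genes.

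**Figure D3:**
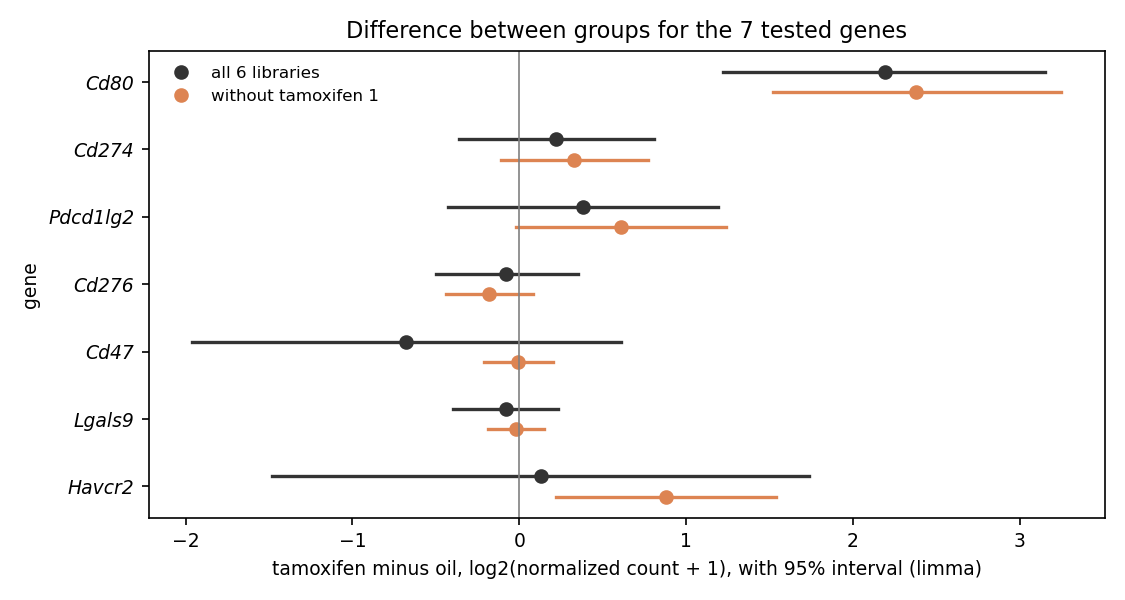
Tamoxifen minus oil on the log2(value + 1) scale (horizontal axis) for the 7 tested genes (vertical axis), with points for the limma estimate and lines for its 95% interval, over all 6 libraries (black) and without tamoxifen 1 (orange). The interval of Cd80 lies above 0 in both fits, those of Cd274, Pdcd1lg2, Cd276, Cd47 and Lgals9 include 0 in both, and that of Havcr2 moves from -1.48 to 1.74 to 0.22 to 1.54.

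The deviation of tamoxifen 1 moved with the GC content of transcripts. Among tested protein-coding genes its median log2 deviation from the other 5 libraries was -1.38 below 42% GC, -0.72 from 42% to 46%, -0.13 from 46% to 50%, 0.32 from 50% to 54% and 0.80 above. The deviations of Cd47 (42.2% GC) and Havcr2 (45.3% GC) were -2.05 and -1.68, below the lower quartile of -1.31 in their class. That of Cd80 (42.7% GC) was 1.16 and that of Cd274 (44.9% GC) was -0.02, both above the upper quartile of -0.18 in the same class. Lgals9 (51.8% GC) deviated by -0.19 and Cd276 (56.2% GC) by 0.19, below the lower quartiles of -0.10 and 0.38 in their classes. Pdcd1lg2 (49.5% GC) deviated by -0.47, within the quartiles of its class. With a GC correction the log2 fold changes were 2.53 for Cd80, 0.46 for Cd274, 0.38 for Pdcd1lg2, -0.30 for Cd276, -0.31 for Cd47, -0.16 for Lgals9 and 0.34 for Havcr2, and limma called 0 of the 7, with an adjusted p of 0.145 for Cd80.

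**Figure D4:**
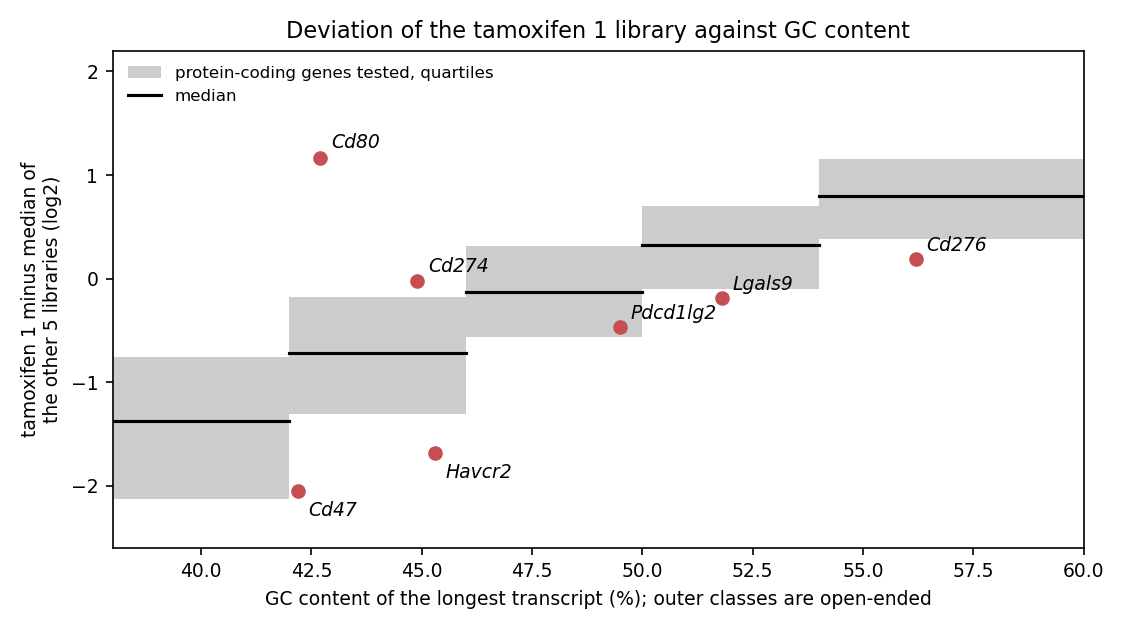
Log2 deviation of the tamoxifen 1 library from the median of the other 5 (vertical axis) against the GC content of the longest transcript in percent (horizontal axis). Grey boxes are the quartiles and black lines the medians of tested protein-coding genes in 5 GC classes, and red points are the 7 tested genes. Cd80 lies above the grey band at 1.16, Lgals9 and Cd276 lie just below the boxes of their classes, and Cd47 and Havcr2 further below theirs at -2.05 and -1.68.

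The genes most like Cd80 over the 6 libraries, by Pearson's correlation of log2(value + 1) among 12297 genes, were Zmat3 (r = 0.983), Fads6 (0.982) and Tpbgl (0.976). Zmat3, a p53 target that encodes an RNA-binding protein, had 927, 674 and 806 normalized counts in the oil-labelled libraries and 1738, 1628 and 2039 in the tamoxifen-labelled. Those most like Cd47 were Spopl, Gm10863 and Gm42595 (r = 0.999 each). Each of these was lowest in tamoxifen 1, where Spopl had 139 against 575 to 635 in the other libraries. The 6 points share their libraries, and the correlations are descriptions.

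Ligands of the same kind outside the 10 genes were followed in a list of 21, of which 13 were tested. limma called 0 of the 13 higher and 0 lower, with 2 higher and 0 lower before adjustment (p under 0.05), against 3.23% and 1.24% of all tested genes. The groups did not overlap for 2 higher and 1 lower, against 7.86% and 9.69%. Their median log2 fold change was 0.21, or 0.04 without tamoxifen 1. Tnfsf4, which encodes OX40 ligand, had 17.1, 6.75 and 17.6 normalized counts in the oil-labelled libraries and 43.5, 63.6 and 46.4 in the tamoxifen-labelled. The tamoxifen-labelled values were all above the oil-labelled, with a log2 fold change of 1.90 (standard error 0.44) and a limma adjusted p of 0.666. DESeq2 gave an adjusted p of 0.031, or 0.0186 without tamoxifen 1, and limma with library weights one of 0.00971, whereas limma without tamoxifen 1 gave 2.01 on the log2 scale and an adjusted p of 0.129. A figure of the study labels Tnfsf4 in this comparison, so this is not independent evidence. Tnfsf4 could also enter the test through the tamoxifen-labelled libraries alone, so the counts over the 13 are no support for its difference. Lgals1, which encodes galectin-1, had 39.5, 44.4 and 42.7 against 150, 57.6 and 88.2, a log2 fold change of 1.10 with a limma adjusted p of 0.666 (0.74 without tamoxifen 1). Pvr, a ligand of TIGIT and CD226, had 326, 267 and 279 against 147, 257 and 192, a log2 fold change of -0.58 with a limma adjusted p of 0.666 (-0.38 without tamoxifen 1). Vtcn1, Cd70, Cd40 and Fgl1 had no read in any library, and Nectin3, Btnl2 and Tnfsf18 had at most 1.

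Of 21 receptors for these ligands, 10 did not exceed 3 reads in any library, 8 of which had no read at all, among them Cd28, Ctla4, Icos and Tigit, and 4 were tested. Pdcd1, which encodes PD-1, had 2 reads in tamoxifen 2 and 0 in each other library. limma called 0 of the 4 at an adjusted p of 0.05, with 1 higher (Sirpa) and 0 lower before adjustment (p under 0.05), against 3.23% and 1.24% of all tested genes. Sirpa could enter the test through the tamoxifen-labelled libraries alone, so the counts over the 4 are no support for its difference. Their median log2 fold change was 0.50, or 0.27 without tamoxifen 1. The groups did not overlap for 1 of the 4, Tnfrsf18, which was higher, and 0 were lower, against 7.86% and 9.69% of all tested genes. Sirpa, whose product binds CD47, had 24.3, 4.82 and 8.36 normalized counts in the oil-labelled libraries and 49.8, 47.5 and 20.9 in the tamoxifen-labelled, a log2 fold change of 1.77 with a limma adjusted p of 0.666 (1.55 without tamoxifen 1). Macrophages are a known source of Sirpa, and the groups overlapped. Tnfrsf18, the receptor GITR, had a log2 fold change of 0.71 and Cd200r1 of -0.65, which came to 0.40 and -0.23 without tamoxifen 1. Cd200r1 lay between 196 and 635 normalized counts in the 6 libraries, while its ligand Cd200 did not exceed 2 reads.

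A further list held 17 genes. Most act on the 10 ligands, by transcription, kinase signaling, protein stability or binding, while Calr and Lrp1 encode calreticulin and a receptor for it. Of the 17, 15 were tested. limma called 0 of them, with 2 higher and 0 lower before adjustment (p under 0.05), against 3.23% and 1.24% of all tested genes. The groups did not overlap for 6 higher, Lrp1 and Cmtm4 among them, and 1 lower, against 7.86% and 9.69%. Their median log2 fold change was 0.19, or 0.12 without tamoxifen 1. Lrp1, a receptor on phagocytes for calreticulin, had 8.98, 4.82 and 12.1 normalized counts in the oil-labelled libraries and 38.3, 24.2 and 27.3 in the tamoxifen-labelled, a difference of 1.74 on the log2 scale (limma adjusted p of 0.666), or 1.55 without tamoxifen 1 (0.219). Irf9, a transcription factor of the interferon response, had 1578, 1652 and 1434 against 2023, 2021 and 1891, a log2 fold change of 0.35 with a limma adjusted p of 0.666 (0.33 without tamoxifen 1). Cmtm4, whose product is known to stabilize PD-L1, had 14.4, 9.65 and 23.2 against 30.7, 25.3 and 30.0, a log2 fold change of 0.90 with a limma adjusted p of 0.666 (0.85 without tamoxifen 1). Lrp1 and Cmtm4, like Cd80, Tnfsf4 and Sirpa, could enter the test through the tamoxifen-labelled libraries alone. The counts over the 15 are therefore no support for the differences of Lrp1 and Cmtm4. For Lrp1, Irf9 and Cmtm4 the tamoxifen-labelled values were all above the oil-labelled.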

How the data were processed

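Reads were aligned and normalized by the authors with STAR and DESeq2 on mm10, per the submitters' processing notes. Annotation, strand setting and filters are not stated. The deposited signal is a count per gene scaled by the size factor of its library, and 100% of values above 0 were whole multiples of the value of 1 read (tolerance 0.1), from which whole reads were recovered. The 1832 rows without a name (0.0400% to 0.0614% of reads) were left out.

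Groups were compared on log2(value + 1) by limma 3.58.1 in R 4.3.3, with a mean-variance trend, for genes that reached 10 in at least 3 libraries, two-sided, with Benjamini-Hochberg adjustment over 12298 genes and a threshold of 0.05. Fold changes on this scale understate the change of low genes. edgeR (4.0.16) and DESeq2 (1.42.0) were run on recovered reads. Fits were tested on simulated data. The GC correction was a loess curve with a span of 0.3. Reads carry no molecular identifiers, so intervals and floors cover counting error only. Each library came from 1 mouse.

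The genes and lists were chosen with earlier results of these data known. Values are given for all 10 genes and Usp18. Named by rule were the 3 genes with the smallest p of each of the other ligand, receptor and regulator lists. The 3 genes most like each of the 2 members with the smallest p were also named by rule. So were the 2 most abundant markers per cell type, some of them only as leading a sum. Other genes were named after their values were seen.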

Additional observations from a re-analysis of the deposited data

How the results depend on the processing

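Of the 10 ligands, limma called 0 over all libraries. The count was 1 with DESeq2, 1 with edgeR without tamoxifen replicate 1, 2 with DESeq2 without tamoxifen replicate 1 and 2 with library weights (Cd80 and Havcr2). With 1 library left out it was 0 to 1 in limma, and 1 only without tamoxifen replicate 1. The other ligands had 1, 2 and 4 calls with DESeq2, with DESeq2 without tamoxifen replicate 1 and with library weights, and the regulators 1 with library weights. Of all tested genes, DESeq2 called 0.437% higher, or 1.28% without tamoxifen replicate 1, edgeR 0.341% and limma 0.309% without that library, and limma with library weights 3.82%. The weight of tamoxifen replicate 1 was 0.0377, so the weighted fit and the fits without that library are not separate support. Pseudocounts, scaling, voom, edgeR over all libraries, GC correction and no expression filter called 0 in these lists, and receptors had 0 calls throughout. Cd47 turned to 0.022 with library weights, 0.016 with edgeR and 0.010 with DESeq2 without tamoxifen replicate 1. With 1 library left out, Cd47 lay between -1.06 and -0.0061, Cd276 between -0.18 and 0.040 (above 0 without oil replicate 1 or tamoxifen replicate 3) and Havcr2 between -0.53 and 0.88. Cd80, Cd274, Pdcd1lg2, Lgals9 and the genes named from the other ligand, receptor and regulator lists by their p kept their direction under every alternative run. For Lgals9 and Cd274 some estimates lay near 0. They were -0.0025 for Lgals9 with edgeR without tamoxifen replicate 1 and 0.03 for Cd274 with limma without tamoxifen replicate 3. Replicate numbers gave no pairing of libraries (correlations of same-numbered deviations -0.0236, 0.0607 and -0.153), and with the replicate block 0 ligands were called, Cd80 at 2.19 with a limma adjusted p of 0.731. The cause of these shifts was not tested. At this depth Cd86, Icosl and Cd200 were too low for a comparison.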

Other observations

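CD48 and CD244 form a further ligand and receptor pair of immune cells, chosen here after its values were seen. Cd48 had 311, 200 and 206 normalized counts in oil 1, 2 and 3 against 47.3, 382 and 566 in tamoxifen 1, 2 and 3. As for Havcr2, tamoxifen 1 was the lowest and tamoxifen 3 the highest library, and the log2 fold change was -0.10 over all libraries and 0.99 without tamoxifen 1, with limma adjusted p of 0.957 and 0.140. Cd48 was called higher by limma with library weights, where 3.82% of tested genes were called higher. DESeq2 without tamoxifen 1 also called it, where 1.28% were, and edgeR with or without that library did not. Its receptor Cd244 was below the expression filter, with 0.898, 4.82 and 3.71 against 10.2, 8.08 and 32.7 normalized counts. The tamoxifen-labelled values were all above the oil-labelled for Cd244, and its difference was not tested.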
